A study of Mus musculus with 8 samples.

Results

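The kinetochore is the protein assembly that forms on each centromere and holds a chromosome to the mitotic spindle, and the spindle checkpoint delays anaphase until every kinetochore is attached. The genes described here are 37 mouse genes that encode proteins of these assemblies. They were chosen by name, with earlier results of these data known. All 37 had a row among the 26062 gene rows of the count table. They were sorted by role into 8 groups. RNA was sequenced from microglia, which are macrophages that live in brain tissue. They came from the LGN (lateral geniculate nucleus), where axons of the retina end in the thalamus, and CD11b magnetic beads were used to purify them. All libraries came from wild type male C57BL/6J mice aged 2 to 3 months. There were 2 libraries from uninjured mice, 3 from mice taken 1 day after crush of both optic nerves and 3 from mice taken 3 days after it. Whether each library holds 1 animal or several is not stated in the labels, and p-values here cover just the variation among libraries, some of which may be technical.

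Resting microglia divide rarely, and microglia are known to proliferate where axons or their terminals degenerate. Most kinetochore and checkpoint transcripts are made in the late phases of the cell cycle, so a tissue with few cycling cells holds little of them. A part of the inner kinetochore stays on the centromere throughout the cycle, whereas the outer kinetochore, the checkpoint proteins and the chromosomal passenger complex assemble there for mitosis. In bulk RNA, a larger share of dividing cells and more RNA per dividing cell cannot be told apart.

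Of the 37 kinetochore and checkpoint genes, 17 rose at 3 days over uninjured mice and 23 over 1 day. Among all tested genes, 2.49% and 5.24% rose in these comparisons. Cenpa and Hjurp were already at 74.8 and 43.4 CPM on average in uninjured mice. The level of a gene is given in CPM, its counts in proportion to the size of the library after TMM scaling. Summed over the 37 members, the level was 211 and 192 CPM in the uninjured libraries, 117, 152 and 181 CPM at 1 day, and 716, 897 and 922 CPM at 3 days. No member was at 0 in a 3 day library. The uninjured libraries had 2 and 5 members with no count, and the 1 day libraries had 10, 11 and 6. The mean was under 1 CPM for 15 members in uninjured mice, 18 at 1 day and 0 at 3 days. It was over 10 CPM for 3 members in uninjured mice, 3 at 1 day and 22 at 3 days.

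**Figure D1:**
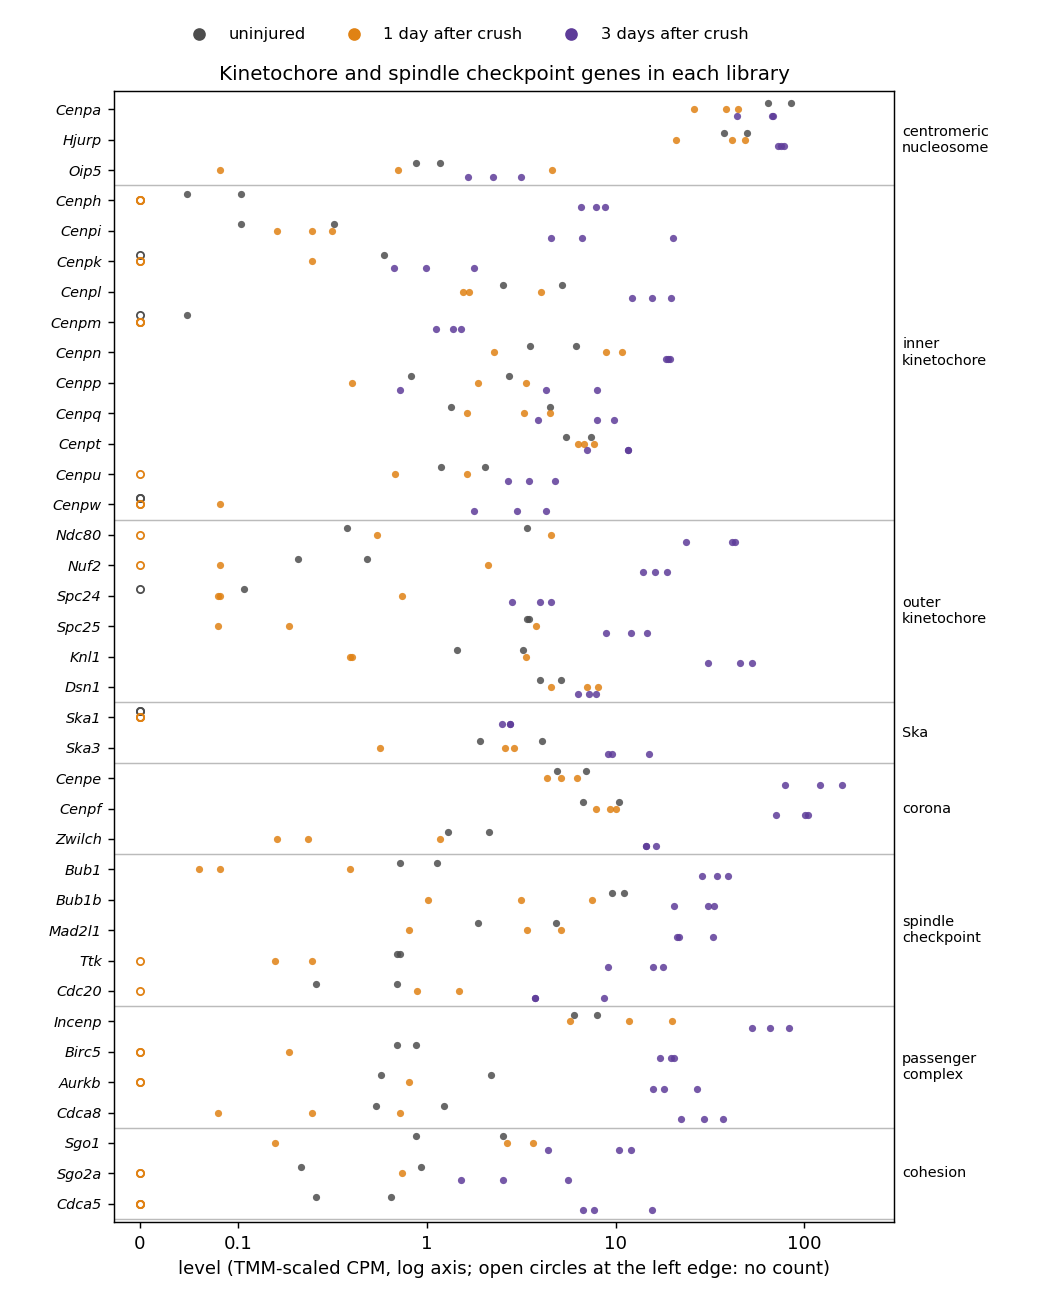
Level of each of the 37 members in each of the 8 libraries, in TMM-scaled CPM on a log axis, with uninjured libraries in grey, 1 day in orange and 3 days in purple, and open circles at the left edge for libraries with no count. The 3 day points lie right of all uninjured points for 33 members, and Cenpa, Cenpp, Cenpq and Cenpt are the exceptions.

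At 3 days against uninjured mice, 17 of 37 members rose and 0 fell in the edgeR test (adjusted p under 0.05 by Benjamini-Hochberg, across 17390 genes), where 2.49% of tested genes rose and 0.983% fell. Of all genes called there, 71.7% rose, against 56.5% with scaling by library size alone and 56.1% with upper quartile scaling, and no member fell with either. Every member passed the filter on low counts, which a gene can pass through its highest group. Ska1, Cenpw, Cenph and Cenpm had 3 summed counts or fewer in each earlier group. They passed through the 3 day group alone and could only be higher there, and all of them but Cenpm are among the 17. The same holds for Cenpi, Nuf2, Cdca5 and Cdca8, also among the 17, and for Cenpk and Spc24, which were not called. Each of these had at most 1 earlier library high enough to count towards the filter, too few to pass it. The median log2 fold change of the members was 3.27, also with the 2 members absent from uninjured mice set at their lower bound, beside −0.0016 for all tested genes. The libraries did not overlap for 33 members, all higher at 3 days, where 20.1% of tested genes were higher without overlap. The count of risers fell when single libraries were left out. Leaving out any 1 of the 3 day libraries gave 9 members. The risers among all tested genes then fell as well, from 433 to 229, 281 and 144 without replicates 1, 2 and 3. Without control replicate 1 or 2, which leaves 1 uninjured library, most calls were lost, and the median log2 fold change of the members was 3.54 and 3.20. Incenp, Cenpf, Bub1, Cdca8 and Cenpe were called in every setting tried. Adjusted p-values for calls lost with 1 library left out are given with each gene, for some genes just the highest or the range.

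Against the 1 day libraries, 23 of 37 members rose at 3 days and 0 fell, where 5.24% of tested genes rose and 5.75% fell. Their median log2 fold change was 3.58, beside 0.02 for all tested genes. The 23 risers comprised the 17 that rose against uninjured mice and 6 more, Hjurp, Cenpl, Cenpm, Spc25, Ska3 and Bub1b. The 3 day libraries did not overlap the 1 day libraries for 31 members, all higher at 3 days, where 16.1% of tested genes were higher without overlap. The comparisons share the 3 day libraries, so they are not independent. Members that passed the filter through the 3 day group alone could only be higher here too. A further 14 members were called in neither comparison.

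**Figure D2:**
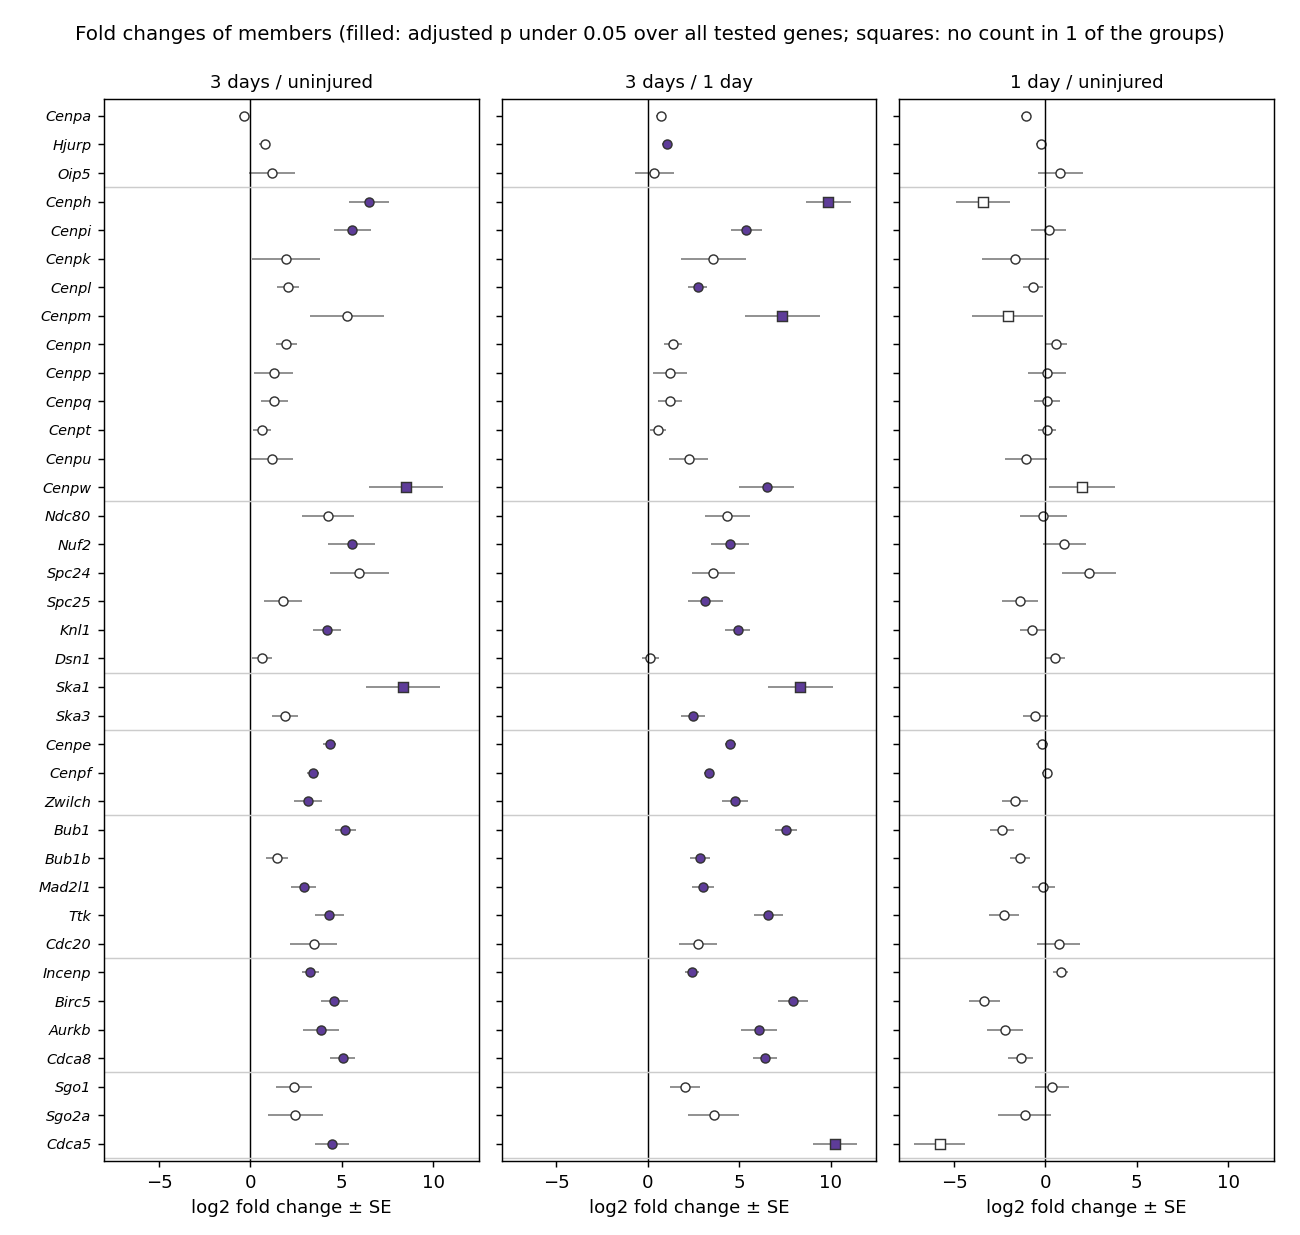
Log2 fold change with its standard error for each member, in panels for 3 days over uninjured, 3 days over 1 day, and 1 day over uninjured, with filled symbols for members at an adjusted p under 0.05 and squares where 1 of the groups has no count, so that the fitted value is no bound. Filled symbols number 17, 23 and 0 from left to right, and Ska1 has no symbol in the right panel because both groups are at 0.

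The stretches upstream of 8 members are shown, chosen after their letters and values were seen. Cenpa is the member with the highest level before injury and did not rise. The others rose over both earlier groups: Bub1, Cdca8, Cenpf, Ttk and Cenpw hold a CCAAT box, and Knl1 and Nuf2 are examples of the risers that hold none. The letters are the 140 bases before the gene start in RefSeq, build GRCm38.p6, 5′ to 3′ on the strand of the gene, with CCAAT boxes (CCAAT or its complement ATTGG) and the cell cycle gene homology region (TTTGAA or TTCGAA or their complements) in capitals. The intervals are chr5:30666746-30666885 on the plus strand for Cenpa, chr2:127831860-127831999 on the minus strand for Bub1, chr4:124936918-124937057 on the minus strand for Cdca8, chr1:189688087-189688226 on the minus strand for Cenpf, chr9:83834549-83834688 on the plus strand for Ttk, chr10:30200541-30200680 on the minus strand for Cenpw, chr2:119046979-119047118 on the plus strand for Knl1 and chr1:169531465-169531604 on the minus strand for Nuf2.
Cenpa: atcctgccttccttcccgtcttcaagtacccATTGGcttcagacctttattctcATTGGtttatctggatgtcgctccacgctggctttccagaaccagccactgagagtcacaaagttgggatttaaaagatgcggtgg
Bub1: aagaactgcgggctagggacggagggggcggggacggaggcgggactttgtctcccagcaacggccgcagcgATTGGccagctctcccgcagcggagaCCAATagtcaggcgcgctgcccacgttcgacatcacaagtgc
Cdca8: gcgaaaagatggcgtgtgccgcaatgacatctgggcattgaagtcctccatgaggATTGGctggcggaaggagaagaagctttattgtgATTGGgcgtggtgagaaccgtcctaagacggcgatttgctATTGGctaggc
Cenpf: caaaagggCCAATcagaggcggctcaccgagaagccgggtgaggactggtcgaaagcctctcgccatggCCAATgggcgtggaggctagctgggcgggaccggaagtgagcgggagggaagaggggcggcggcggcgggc
Ttk: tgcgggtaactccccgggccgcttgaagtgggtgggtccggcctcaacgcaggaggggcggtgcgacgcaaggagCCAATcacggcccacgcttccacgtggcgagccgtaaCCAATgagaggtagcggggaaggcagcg
Cenpw: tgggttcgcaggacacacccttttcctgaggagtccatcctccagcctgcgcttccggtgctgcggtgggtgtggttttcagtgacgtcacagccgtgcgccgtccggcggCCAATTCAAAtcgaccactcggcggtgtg
Knl1: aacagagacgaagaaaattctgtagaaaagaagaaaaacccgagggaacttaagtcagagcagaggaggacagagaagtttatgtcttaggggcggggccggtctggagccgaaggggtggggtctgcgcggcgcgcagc
Nuf2: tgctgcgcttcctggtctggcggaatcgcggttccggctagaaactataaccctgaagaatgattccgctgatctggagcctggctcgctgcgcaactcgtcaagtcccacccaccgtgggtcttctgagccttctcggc
Cdca8 has 3 CCAAT boxes in its stretch, Cenpa, Bub1, Cenpf and Ttk have 2 each, and Cenpw has 1, which shares a base with a homology region. Knl1 and Nuf2 have 0.

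RefSeq starts were matched by symbol for 32 of the 37 members, and Spc24, Ska1, Zwilch, Incenp and Aurkb have no entry. The bases just after the start were not found in a GENCODE M21 transcript of the gene for Birc5, Mad2l1, Oip5 and Spc25. The same was true of the only Sgo2a start with a CCAAT box. These genes are kept in the counts below, where Oip5, Spc25 and Sgo2a are among those with a CCAAT box. In the 250 bases before the start, on either strand, 19 of the 32 (59.4%) hold a CCAAT box, beside 37.5% of 27025 genes in the RefSeq table. The homology region was found in 8 members (25.0%), beside 19.6% of genes. An exact E2F core (TTTCCCGC, TTTGGCGC, TTTCGCGC or TTTGCCGC, or a complement) was found in Cenpl, Cenpm and Dsn1 (9.38%), beside 2.16% of genes. The CCAAT box was present in 6 of the 13 matched members that rose against uninjured mice and in 13 of the 19 that were not called. These matches describe letters only and were not tested.

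Cenpa (ENSMUSG00000029177) encodes the histone H3 variant that marks the centromere, Hjurp (ENSMUSG00000044783) encodes the chaperone that loads it, and Oip5 encodes a subunit of the Mis18 complex that prepares the centromere for loading. None of the 3 rose against uninjured mice. Cenpa had 85.3 and 64.3 CPM in uninjured libraries, 26.1, 38.4 and 44.7 CPM at 1 day, and 67.1, 67.9 and 44.1 CPM at 3 days. The 3 day libraries overlapped the uninjured range, and Cenpa was the member with the smallest log2 fold change at 3 days over uninjured, −0.32 (SE 0.27, adjusted p = 0.657). Cenpa was the only member with a negative fold in that comparison, and its fold was negative in every setting tried. The 1 day libraries all lay below both uninjured libraries, with a log2 fold change of −1.04 (SE 0.27, unadjusted p = 0.00184, adjusted p = 0.0698), which edgeR did not call and DESeq2 did (adjusted p = 0.00981, and 0.00981 to 0.678 over all alternatives).

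Hjurp had 37.4 and 49.5 CPM in uninjured libraries, 20.9, 41.1 and 48.2 CPM at 1 day, and 72.6, 78.1 and 74.9 CPM at 3 days. The 3 day libraries were close together and above all others. The log2 fold change was 0.79 over uninjured mice (SE 0.30, adjusted p = 0.201) and 1.03 over 1 day (SE 0.27, adjusted p = 0.0245), and the call over 1 day was lost without 3 day replicate 1 (adjusted p = 0.0676), 2 (0.0722) or 3 (0.0843). Oip5 had 1.18 and 0.876 CPM in uninjured libraries, 0.701, 0.0802 and 4.62 CPM at 1 day, and 2.22, 1.64 and 3.15 CPM at 3 days, with the widest range at 1 day. Cenpa and Hjurp together made up 58.1% and 59.3% of the members' summed level in the uninjured libraries, 40.0%, 52.2% and 51.4% at 1 day, and 19.5%, 16.3% and 12.9% at 3 days. Their own sum was 123 and 114 CPM in uninjured libraries, 47.0, 79.5 and 92.96 CPM at 1 day, and 140, 146 and 119 CPM at 3 days, so the other members carried nearly the whole increase.

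**Figure D3:**
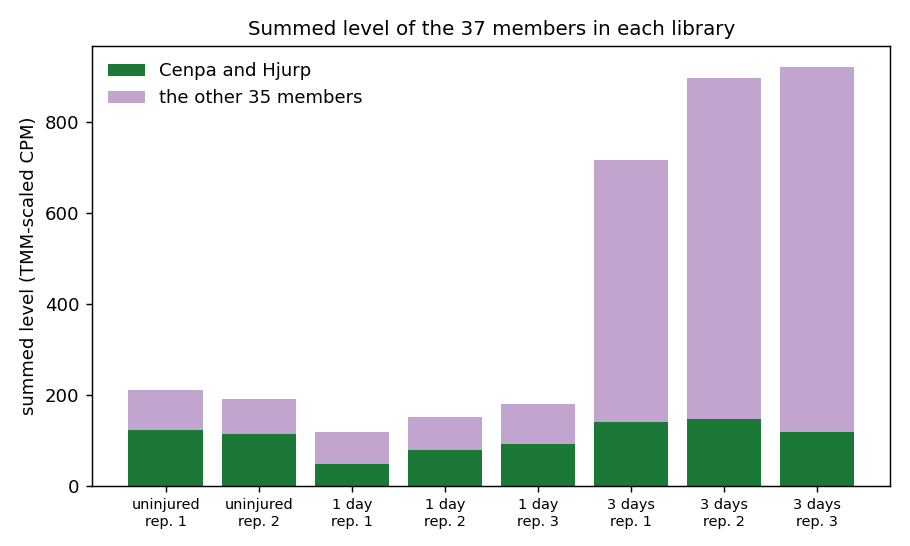
Summed level of the members in each library in TMM-scaled CPM, with Cenpa and Hjurp in green at the base of each bar and the other 35 members in violet above. The green part is 119 to 146 CPM at 3 days and 123 and 114 CPM in uninjured libraries, whereas the violet part is 576 to 803 CPM at 3 days and 88.7 and 77.9 CPM in uninjured libraries.

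The inner kinetochore, or constitutive centromere-associated network, binds the centromeric nucleosome and carries the outer kinetochore. Of its 11 members, 3 rose at 3 days over uninjured mice (Cenph, Cenpi and Cenpw), 5 rose over 1 day (the same genes with Cenpl and Cenpm), and 0 fell. Cenpw, which forms a histone-fold unit with the product of Cenpt, had no count in either uninjured library, 0, 0.0802 and 0 CPM at 1 day, and 1.77, 4.24 and 2.99 CPM at 3 days. It was at least 37.4-fold higher at 3 days than in uninjured mice, against a floor of 3 counts summed over the uninjured group (adjusted p = 0.0336). With 1 count in the 1 day libraries, the ratio of 3 days to 1 day was 122 (95% exact binomial interval 21.5 to 4867, which covers counting error only). Its call against uninjured mice was lost whenever 1 uninjured or 3 day library was left out (highest adjusted p = 0.294, without control replicate 1), and its call against 1 day was lost without 3 day replicate 2 (0.0622) or 3 (0.0593).

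Cenph and Cenpi encode subunits of the same unit of this network. Cenph averaged 0.0782 ± 0.0351 CPM in uninjured mice (SD, n = 2), had no count at 1 day, and averaged 7.72 ± 1.13 CPM at 3 days (SD, n = 3). With 3 counts in the uninjured pair, the ratio of 3 days to uninjured was 98.6 (95% interval 33.4 to 481, adjusted p = 0.00654), and the level was at least 107-fold higher at 3 days than at 1 day. The call against uninjured mice was lost without control replicate 1 (adjusted p = 0.133) or 2 (0.0664). Cenpi averaged 0.212 ± 0.154 CPM in uninjured libraries, 0.240 ± 0.0758 CPM at 1 day and 10.4 ± 8.42 CPM at 3 days, when 3 day replicate 2 stood at 20.03 CPM and the others at 4.51 and 6.62 CPM. It rose over both earlier groups (log2 fold change 5.57, SE 1.02, adjusted p = 0.00725 over uninjured mice), and over uninjured mice it was not called without control replicate 1 (0.0774), control replicate 2 (0.0964) or 3 day replicate 2 (0.0804).

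The other 8 inner kinetochore genes were not called against uninjured mice. Cenpl had 5.18 and 2.52 CPM in uninjured libraries, 1.56, 4.01 and 1.66 CPM at 1 day, and 15.6, 19.7 and 12.2 CPM at 3 days. All its 3 day libraries were above the rest, with a log2 fold change of 2.04 over uninjured mice (SE 0.60, adjusted p = 0.0866) and 2.72 over 1 day (SE 0.54, adjusted p = 0.00532), and it was called against uninjured mice without day 1 replicate 1 (0.0491) or 2 (0.0344). Cenpn, whose product reads the centromeric nucleosome, had 3.53 and 6.13 CPM in uninjured libraries, 2.26, 8.91 and 10.8 CPM at 1 day, and 19.4, 18.8 and 18.6 CPM at 3 days. Its 3 day libraries were the closest of any member, with a coefficient of variation of 2.32%, and its log2 fold change over uninjured mice was 1.97 (SE 0.59, adjusted p = 0.0900, and 0.0141 without day 1 replicate 1).

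Cenpm had 0.0534 and 0 CPM in uninjured libraries, no count at 1 day, and 1.504, 1.12 and 1.37 CPM at 3 days. From 1 count in uninjured mice, the ratio of 3 days to uninjured was 51.0 (95% interval 8.78 to 2051, adjusted p = 0.212), and it was at least 18.5-fold higher than at 1 day (adjusted p = 0.0383). That call was lost whichever of the 8 libraries was left out (adjusted p = 0.0531 to 0.108). Cenpk had 0.588 and 0 CPM in uninjured libraries, 0, 0 and 0.246 CPM at 1 day, and 0.981, 0.670 and 1.78 CPM at 3 days, which makes it the member with the lowest mean at 3 days.

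Cenpt, Cenpp, Cenpq and Cenpu were detected in uninjured mice at means of 1.61 to 6.43 CPM. Cenpt, which links the nucleosome to the NDC80 complex, had 5.45 and 7.42 CPM in uninjured libraries, 7.63, 6.34 and 6.78 CPM at 1 day, and 11.6, 7.00 and 11.6 CPM at 3 days. Cenpp had 2.73 and 0.824 CPM in uninjured libraries, 1.87, 0.401 and 3.33 CPM at 1 day, and 0.719, 7.97 and 4.28 CPM at 3 days. The 3 day libraries of both genes overlapped the uninjured ones, and Cenpp had the largest coefficient of variation of any member at 3 days, 83.9%. Cenpq had 4.49 and 1.34 CPM in uninjured libraries, 1.64, 4.49 and 3.27 CPM at 1 day, and 7.91, 9.83 and 3.87 CPM at 3 days, again with overlap. Cenpu had 2.03 and 1.19 CPM in uninjured libraries, 1.64, 0 and 0.678 CPM at 1 day, and 2.68, 4.77 and 3.47 CPM at 3 days, all above the earlier libraries. The log2 fold changes of these 4 genes over uninjured mice were 0.64 (Cenpt, SE 0.49), 1.28 (Cenpp, SE 1.08), 1.31 (Cenpq, SE 0.74) and 1.17 (Cenpu, SE 1.16).

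In the outer kinetochore, KNL1 is the platform of the checkpoint, the MIS12 complex (here Dsn1) connects inner and outer layers, and the NDC80 complex (Ndc80, Nuf2, Spc24 and Spc25) grips the microtubule. Of these 6 genes, 2 rose at 3 days over uninjured mice (Knl1 and Nuf2), 3 rose over 1 day (the same with Spc25), and 0 fell. Knl1 (ENSMUSG00000027326) had 3.21 and 1.44 CPM in uninjured libraries, 0.389, 0.401 and 3.33 CPM at 1 day, and 30.7, 53.0 and 45.5 CPM at 3 days. All 3 day libraries were far above the rest, with a log2 fold change of 4.21 over uninjured mice (SE 0.77, adjusted p = 0.00734), which was not called without control replicate 1 (0.0676), control replicate 2 (0.0997) or 3 day replicate 3 (0.0503). Nuf2 averaged 0.343 ± 0.194 CPM in uninjured libraries, 0.728 ± 1.19 CPM at 1 day and 16.3 ± 2.41 CPM at 3 days, with a log2 fold change of 5.54 over uninjured mice (SE 1.29, adjusted p = 0.0285). It was not called against uninjured mice when any 1 uninjured or 3 day library was left out (highest adjusted p = 0.242, without control replicate 2), nor against 1 day without 3 day replicate 3 (0.0616).

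The remaining subunits of the NDC80 complex were highest in the 3 day libraries and did not pass the test against uninjured mice. Ndc80 had 0.374 and 3.40 CPM in uninjured libraries, 0.545, 0 and 4.56 CPM at 1 day, and 23.7, 43.1 and 41.6 CPM at 3 days. The 3 day libraries lay above all others, but the earlier ones differed widely among themselves, and the log2 fold change over uninjured mice was 4.25 (SE 1.43, adjusted p = 0.181). Ndc80 was called against uninjured mice without day 1 replicate 2 (0.0391) or 3 (0.0139) and against 1 day without the same replicates (0.0310 and 0.00197).

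Spc24 had 0.107 and 0 CPM in uninjured libraries, 0.0779, 0.0802 and 0.739 CPM at 1 day, and 3.99, 2.83 and 4.52 CPM at 3 days. From 2 counts in uninjured mice, the ratio of 3 days to uninjured was 71.9 (95% interval 19.6 to 599, adjusted p = 0.0604). It passed when any 1 of the 1 day libraries was left out (adjusted p = 0.0299 to 0.0345). Spc25 had 3.47 and 3.40 CPM in uninjured libraries, 0.0779, 3.77 and 0.185 CPM at 1 day, and 8.89, 11.99 and 14.6 CPM at 3 days. Its rise over 1 day (log2 fold change 3.15, SE 0.95, adjusted p = 0.0467) was called only with all libraries or without day 1 replicate 2 among the sets that leave out 1 library, and its highest adjusted p was 0.157, without 3 day replicate 3. Dsn1 had 5.13 and 3.97 CPM in uninjured libraries, 4.52, 7.06 and 8.01 CPM at 1 day, and 7.19, 7.89 and 6.29 CPM at 3 days, and it had the smallest log2 fold change of any member over 1 day, 0.13 (SE 0.47, adjusted p = 0.909).

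The Ska complex stabilises kinetochores on microtubules. Ska1 had no count in any uninjured or 1 day library and 2.48, 2.76 and 2.74 CPM at 3 days. It was at least 33.7-fold higher at 3 days than in uninjured mice (adjusted p = 0.0475) and at least 36.7-fold higher than at 1 day (adjusted p = 0.0116). The first call was lost when any 1 uninjured or 3 day library was left out (highest adjusted p = 0.347, without control replicate 1) and the second without 3 day replicate 3 (0.0547). Ska3 had 4.06 and 1.91 CPM in uninjured libraries, 2.88, 0.562 and 2.59 CPM at 1 day, and 9.09, 9.53 and 15.01 CPM at 3 days. Its log2 fold change was 1.91 over uninjured mice (SE 0.72, adjusted p = 0.192) and 2.47 over 1 day (SE 0.64, adjusted p = 0.0239), and the rise over 1 day was not called without 3 day replicate 1 (0.0552), 2 (0.0555) or 3 (0.130).

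All 3 genes of the fibrous corona, the outermost kinetochore layer, rose over both earlier groups. Cenpe (ENSMUSG00000045328), the gene of a kinesin motor that moves chromosomes to the spindle equator, had 7.00 and 4.89 CPM in uninjured libraries, 5.14, 4.33 and 6.22 CPM at 1 day, and 79.0, 121 and 159 CPM at 3 days. The 1 day libraries lay in and around the uninjured range, and the 3 day libraries reached the highest mean level of any member, with a log2 fold change of 4.33 over uninjured mice (SE 0.36, adjusted p = 3.41e-05). Cenpf (ENSMUSG00000026605), which encodes a large microtubule-binding corona protein, had 10.4 and 6.70 CPM in uninjured libraries, 10.1, 9.31 and 7.89 CPM at 1 day, and 70.7, 105 and 100 CPM at 3 days (log2 fold change 3.42, SE 0.32, adjusted p = 6.55e-05). Zwilch, a subunit of the complex that recruits dynein and the Mad proteins, averaged 1.71 ± 0.600 CPM in uninjured libraries, 0.522 ± 0.563 CPM at 1 day and 15.1 ± 1.09 CPM at 3 days (log2 fold change 3.14, SE 0.76, adjusted p = 0.0356). Zwilch was not called against uninjured mice when any 1 uninjured or 3 day library was left out (highest adjusted p = 0.277, without control replicate 2).

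Of the 5 spindle checkpoint genes, Bub1, Mad2l1 and Ttk rose at 3 days over uninjured mice, these and Bub1b rose over 1 day, and 0 fell. Bub1 (ENSMUSG00000027379), the kinase that recruits other checkpoint proteins and whose upstream letters are printed above, had 1.12 and 0.721 CPM in uninjured libraries, 0.389, 0.0802 and 0.0616 CPM at 1 day, and 28.8, 39.5 and 34.2 CPM at 3 days. The groups did not overlap in any pair, and the log2 fold change was 5.20 over uninjured mice (SE 0.59, adjusted p = 0.000219) and 7.58 over 1 day (SE 0.60, adjusted p = 6.26e-06). Bub1b, which encodes the related protein BubR1 of the inhibitor that holds back the anaphase-promoting complex, had 9.56 and 11.02 CPM in uninjured libraries, 1.01, 3.13 and 7.52 CPM at 1 day, and 20.4, 30.97 and 33.1 CPM at 3 days. Its 3 groups did not overlap either, and the log2 fold change was 1.45 over uninjured mice (SE 0.59, adjusted p = 0.231) and 2.84 over 1 day (SE 0.55, adjusted p = 0.00424).

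Mad2l1, whose product MAD2 binds and restrains CDC20, averaged 3.36 ± 2.10 CPM in uninjured libraries, 3.10 ± 2.18 CPM at 1 day and 25.3 ± 6.64 CPM at 3 days (log2 fold change 2.91 over uninjured mice, SE 0.69, adjusted p = 0.0308). Ttk, the gene of the checkpoint kinase MPS1, averaged 0.708 ± 0.0189 CPM in uninjured libraries, 0.134 ± 0.125 CPM at 1 day and 14.3 ± 4.58 CPM at 3 days (4.32, SE 0.80, adjusted p = 0.00814). Mad2l1 was not called against uninjured mice when any 1 uninjured or 3 day library was left out (highest adjusted p = 0.355, without control replicate 1), and Ttk was not called without control replicate 1 (0.136), control replicate 2 (0.0881) or 3 day replicate 1 (0.0595). Cdc20, the activator of the anaphase-promoting complex and the target of the checkpoint, had 0.695 and 0.258 CPM in uninjured libraries, 0, 0.883 and 1.48 CPM at 1 day, and 3.73, 3.72 and 8.71 CPM at 3 days. All its 3 day libraries were above the rest, with a log2 fold change of 3.48 over uninjured mice (SE 1.28, adjusted p = 0.181, and 0.0422 without day 1 replicate 1).

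**Figure D4:**
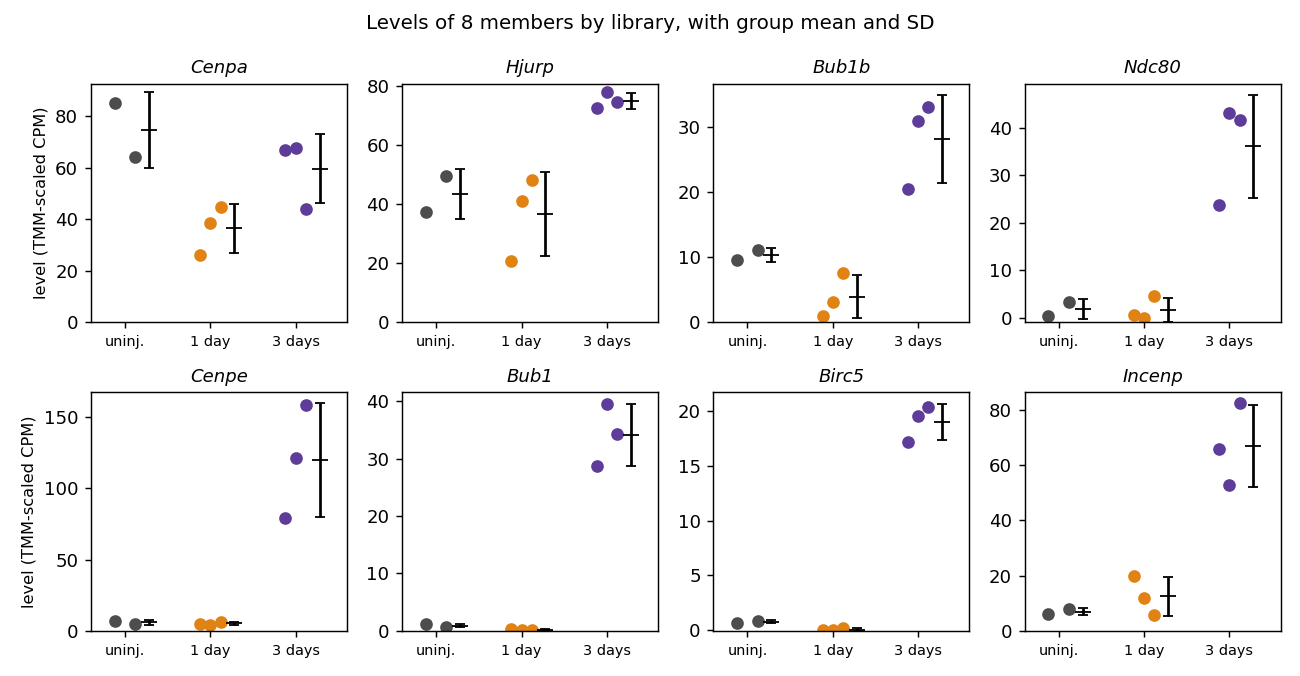
Level of 8 members in each library in TMM-scaled CPM on linear axes, with coloured points for libraries in the order uninjured, 1 day and 3 days, and a dash with a bar for each group's mean and SD. Cenpa at 3 days overlaps its uninjured range, Hjurp and Bub1b start from 43.4 and 10.3 CPM on average, and Cenpe, Bub1 and Birc5 lie near the axis before 3 days.

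All 4 genes of the chromosomal passenger complex, which corrects wrong attachments and guides cytokinesis, rose over both earlier groups. Incenp, the scaffold, had 5.98 and 7.93 CPM in uninjured libraries, 19.8, 11.8 and 5.73 CPM at 1 day, and 65.8, 52.8 and 82.5 CPM at 3 days (log2 fold change 3.27 over uninjured mice, SE 0.46, adjusted p = 0.0012). The 1 day libraries of Incenp spread from below to above the uninjured pair. Cdca8, the gene of borealin, had 0.534 and 1.24 CPM in uninjured libraries, 0.0779, 0.722 and 0.246 CPM at 1 day, and 29.2, 37 and 22.3 CPM at 3 days (5.04, SE 0.69, adjusted p = 0.000951). Birc5, the gene of survivin, averaged 0.785 ± 0.128 CPM in uninjured libraries, 0.0616 ± 0.107 CPM at 1 day and 19.0 ± 1.66 CPM at 3 days (4.58, SE 0.75, adjusted p = 0.00352). With 3 counts in all 1 day libraries, its ratio of 3 days to 1 day was 261 (95% interval 89.1 to 1270), and the call against uninjured mice was lost without control replicate 1 (0.0841). Aurkb, the kinase of the complex, averaged 1.38 ± 1.15 CPM in uninjured libraries, 0.267 ± 0.462 CPM at 1 day and 20.3 ± 6.02 CPM at 3 days (3.87, SE 0.998, adjusted p = 0.0468). Its call against uninjured mice was lost when any 1 uninjured or 3 day library was left out (highest adjusted p = 0.321, without control replicate 2), with DESeq2 (0.112), library size alone (0.0557), upper quartile scaling (0.0527) and no filter (0.0662), and over all alternatives the adjusted p was 0.000753 to 0.321.

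Among the 3 genes that protect sister chromatid cohesion, Cdca5 rose over both earlier groups and the shugoshins were not called. Cdca5, the gene of sororin, had 0.641 and 0.258 CPM in uninjured libraries, no count at 1 day, and 6.73, 7.67 and 15.6 CPM at 3 days. Its log2 fold change over uninjured mice was 4.45 (SE 0.92, adjusted p = 0.0193), and it was at least 134-fold higher at 3 days than at 1 day (adjusted p = 0.000275). The call against uninjured mice was lost when any 1 uninjured or 3 day library was left out (highest adjusted p = 0.185, without 3 day replicate 3). Sgo1 had 2.51 and 0.876 CPM in uninjured libraries, 0.156, 2.65 and 3.64 CPM at 1 day, and 4.38, 10.4 and 12.02 CPM at 3 days (log2 fold change 2.39 over uninjured mice, SE 0.99, adjusted p = 0.238). Sgo2a had 0.214 and 0.927 CPM in uninjured libraries, 0, 0 and 0.739 CPM at 1 day, and 1.504, 2.53 and 5.57 CPM at 3 days (2.47, SE 1.52, adjusted p = 0.488). Both shugoshin genes were higher in every 3 day library than in any earlier one. Of the 7007 exonic bases of Sgo2a, 2455 are shared with Kctd18 on the other strand, so without the strand setting reads of the 2 genes cannot be told apart there. The same holds for Cenpu, which shares 1069 of 3999 exonic bases with Primpol, and for smaller shares of another 9 members.

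Set against each other per kilobase of exon (GENCODE M21), members stood in different orders at 3 days and in uninjured mice. The length joins the exons of all annotated transcripts of a gene and can exceed that of any 1 transcript. Levels per kilobase therefore depend on the annotation and are not measures of transcript number. At 3 days Incenp led with 15.5 CPM per kb, followed by Cenpe with 13.9, Cenpa with 10.2, Hjurp with 9.03 and Bub1 with 7.85. In uninjured mice Cenpa led with 12.8 CPM per kb, followed by Hjurp with 5.21, Bub1b with 2.41, Cenpt with 1.76 and Incenp with 1.61. Within the NDC80 complex the 3 day levels were 5.56 CPM per kb for Ndc80, 3.71 for Spc25, 2.58 for Nuf2 and 1.47 for Spc24. In uninjured mice they were 0.291 for Ndc80, 1.08 for Spc25, 0.0542 for Nuf2 and 0.0208 for Spc24. The passenger complex spanned 5.58 (Birc5) to 15.5 (Incenp) CPM per kb at 3 days.

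**Figure D5:**
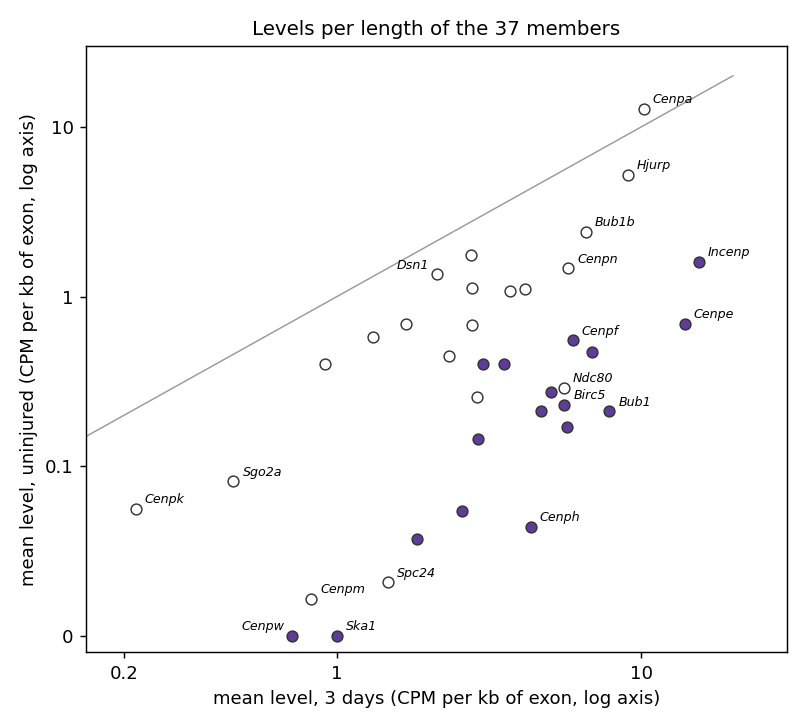
Mean level per kilobase of exon at 3 days (horizontal axis) and in uninjured mice (vertical axis) for each member, both on log axes, with filled points for members that rose against uninjured mice, the line of equal levels in grey, and members with no count drawn at 0. Cenpa lies above the line at 10.2 and 12.8 CPM per kb, and Incenp lies furthest right at 15.5 and 1.61.

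At 1 day against uninjured mice, edgeR called 0 of the 37 members in either direction, where 0.61% of tested genes rose and 1.16% fell. At an unadjusted p under 0.05 there were 9 members (24.3%), all lower at 1 day, beside 14.8% of tested genes in either direction. DESeq2 called 4 as lower and limma-voom called 0. The 4 were Birc5, Cdca5, Bub1 and Cenpa. The median log2 fold change of the members was −0.24, beside 0.06 for all tested genes, and it moved to −0.02 without control replicate 1 but to −0.79 without day 1 replicate 3. The libraries of 8 members did not overlap, all lower at 1 day (Cenpa, Cenph, Zwilch, Bub1, Bub1b, Ttk, Birc5 and Cdca5), where 15% of tested genes were lower and 14.3% higher without overlap.

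The 9 members had uninjured means under 2 CPM apart from Cenpa and Bub1b. Cdca5 had 0 counts at 1 day and 17 in uninjured mice, so it was at least 6.17-fold lower (adjusted p = 0.0553). Birc5 had 3 counts at 1 day and 30 in uninjured mice, so it was 10.9-fold lower at 1 day (95% interval 3.39 to 55.8, adjusted p = 0.0632). Log2 fold changes at 1 day over uninjured mice were −2.37 for Bub1 (SE 0.65, adjusted p = 0.0803), −2.27 for Ttk (SE 0.82), −2.21 for Aurkb (SE 0.98), −1.65 for Zwilch (SE 0.72) and −1.39 for Bub1b (SE 0.57). Cenph was at or under the floor of 3 counts in both groups, so no fold is given. Calls appeared when single libraries were left out: Birc5, Aurkb, Knl1, Zwilch and Bub1b were called as lower without day 1 replicate 3, Bub1 without day 1 replicate 1 and Spc25 without day 1 replicate 2. The member with the highest fitted fold at 1 day, Spc24, had 14 counts there and 2 in uninjured mice and was not called.

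The 3 day libraries differed among themselves in how far the members had risen. Their sums without Cenpa and Hjurp were 576, 751 and 803 CPM for replicates 1, 2 and 3, and replicate 1 held the highest level of the group for 3 members against 17 for each of the other replicates. The median coefficient of variation of a member across the 3 day libraries was 26.3%. It ranged from 2.32% for Cenpn to 83.9% for Cenpp.

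Genes that act beside these members were taken from 4 further lists. At 3 days over uninjured mice, 2.49% of all tested genes rose and 0.983% fell, with a median log2 fold change of −0.0016. Of 21 other kinetochore and checkpoint genes, 5 rose at 3 days over uninjured mice (among them Kntc1, Spdl1, Trip13 and Bub3), 0 fell, and the median log2 fold change was 1.32. Kntc1, the partner of Zwilch, had 19.0 and 16.3 CPM in uninjured libraries, 12.3, 12.5 and 14.2 CPM at 1 day, and 45.3, 67.2 and 62.3 CPM at 3 days (adjusted p = 0.00479). Of 12 mitotic entry kinases and cyclins, 6 rose and 0 fell, with a median of 3.04, and Ccna2 and Ccnb1, the genes of cyclins A2 and B1, had log2 fold changes of 5.48 (SE 0.67, adjusted p = 0.0004) and 5.19 (SE 0.83, adjusted p = 0.00321).

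Of 14 cohesin and separase genes, 2 rose at 3 days over uninjured mice (Smc1a and Esco2), 1 fell (Esco1), and the median was −0.05. Smc1a, a core cohesin subunit, rose by 0.95 on the log2 scale (SE 0.21, adjusted p = 0.0203), and Esco2, the acetyltransferase that acts on cohesin in S phase, by 4.69 (SE 1.02, adjusted p = 0.0198). Of 17 genes of the anaphase-promoting complex and its partners, Ube2c and Anapc5 rose, 0 fell, and the median was 0.28. Ube2c, the ubiquitin-conjugating enzyme of that complex, had 0.321 and 1.70 CPM in uninjured libraries, 0, 0.0802 and 0.431 CPM at 1 day, and 31.2, 40.1 and 47.0 CPM at 3 days (adjusted p = 0.00139), whereas Anapc5, a scaffold subunit, had a log2 fold change of 0.99 (SE 0.23, edgeR adjusted p = 0.0295). At 3 days over 1 day, 6 of the 21 other kinetochore genes rose and 0 fell, 8 of the 12 mitotic entry genes rose and 0 fell, 4 of the 14 cohesin and separase genes rose and 3 fell (Nipbl, Esco1 and Pttg1), and 2 of the 17 anaphase-promoting complex genes rose and 0 fell. Among all tested genes, 5.24% rose and 5.75% fell in that comparison. At 1 day over uninjured mice, edgeR called none of the genes of the 4 lists, and 1, 1, 1 and 3 genes had an unadjusted p under 0.05 in the same order of lists, where 14.8% of tested genes did.

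Library totals were 12700098 to 17994861 counts. The 1 day libraries had 18035 to 20220 genes with a count, against 20632 to 22395 in the others. Mitochondrially encoded genes took 22.5% and 21.3% of counts in uninjured libraries, 13.6%, 21.9% and 13.9% at 1 day, and 22.8%, 28.9% and 30.3% at 3 days, and with these genes left out 17 members still rose at 3 days over uninjured mice. All 10 microglia markers were present in every library, with summed levels of 6103 and 7441 CPM in uninjured libraries, 7433 to 9022 CPM at 1 day and 5873 to 6535 CPM at 3 days. Of these, P2ry12, P2ry13 and Siglech fell at 3 days over uninjured mice. Over 1 day, 5 of the 10 fell at 3 days, the same genes with Tmem119 and Sall1, and 0 rose. Monocyte markers, 6 of 8 tested, had sums of 24.0 and 13.8 CPM in uninjured libraries, 25.1 to 46.1 CPM at 1 day and 11.5 to 15.6 CPM at 3 days, with 0 called at 3 days over uninjured mice. Neutrophil markers, 7 of 8 tested, summed to 47.7 and 37.6 CPM in uninjured libraries, 55.0 to 146 CPM at 1 day and 19.6 to 42.9 CPM at 3 days, and 1 fell at 3 days over 1 day. Border macrophage markers summed to 695 and 580 CPM in uninjured libraries, 531 to 760 CPM at 1 day and 377 to 478 CPM at 3 days, and astrocyte markers to 142 and 119 CPM in uninjured libraries, 88.5 to 138 CPM at 1 day and 63.4 to 76.5 CPM at 3 days. At 3 days over uninjured mice, F13a1 and Slc1a3 fell in these 2 lists. Oligodendrocyte and precursor markers, 6 of 8 tested, had sums of 85.9 to 122 CPM at 3 days and 84.5 and 88.1 CPM in uninjured libraries, with 0 called, and Olig2 had no count in any library after crush. Endothelial markers summed to 1706 and 1463 CPM in uninjured libraries, 652 to 724 CPM at 1 day and 1146 to 1347 CPM at 3 days, with 9 of 10 lower at 1 day over uninjured mice, 8 of 10 higher at 3 days over 1 day, and 0 called at 3 days over uninjured mice. Mural markers summed to 1325 and 1194 CPM in uninjured libraries, 620 to 709 CPM at 1 day and 941 to 1048 CPM at 3 days. Of these 8, 1 fell at 1 day over uninjured mice and 4 rose at 3 days over 1 day. Neuron markers, 5 of 7 tested, summed to 5.62 to 18.2 CPM over all libraries. Lymphocyte markers, 1 of 8 tested, summed to 0.0745 to 2.48 CPM, and 0 of either list were called in any comparison. Choroid plexus and ependyma markers, 7 of 8 in the table, summed to 5474 and 519 CPM in uninjured libraries, 0.467 to 56.7 CPM at 1 day and 617 to 3550 CPM at 3 days. Of these, 2 fell at 1 day over uninjured mice, 4 rose at 3 days over 1 day, and Folr1 and Otx2 had no count at 1 day. The part of these markers and of the mitochondrial share in the members' differences was not tested.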

How the data were processed

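RNA of 8 libraries was amplified and sequenced, per the labels' protocols. The file deposited by the authors gives whole-number read counts for Ensembl genes, not normalized. The submitters' processing notes name FastQC, STAR, HTSeq and build mm9, and for versions, annotation and strand the sources used here give nothing. Of 26062 gene IDs, GENCODE M21 gave a symbol to 25925, and IDs without one held 0.127% of counts. Exonic lengths and overlaps came from that annotation, and promoter letters from RefSeq GRCm38.p6. With no more than a few counts, intervals cover counting error only.

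The main test was the quasi-likelihood test of edgeR 4.0.16 (R 4.3.3) after filterByExpr and TMM, with group means fitted to all 8 libraries together, and p-values were adjusted by Benjamini-Hochberg over 17390 genes. The fit was tested on simulated data. The biological coefficient of variation was 51.1%. Within groups, library counts differed by 31.4 to 64.8 times the sampling variance (chi-square over its degrees of freedom), and each library was 1 replicate. All comparisons of 3 days share libraries with another comparison.

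Alternatives were DESeq2 1.42.0, limma-voom (limma 3.58.1), other scalings and filters, libraries of the 2 groups only, a replicate block and each library left out. Values of every library are given for the 2 highest members of each role group, for those with the extreme folds and for those not called at 3 days over uninjured mice. Of each related list, the 2 genes with the smallest p were named, except 1 gene that is not reported here. Members and lists were chosen with earlier results of these data known.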

Additional observations from a re-analysis of the deposited data

How the results depend on the processing

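At 3 days over uninjured mice, the 17 members called higher became 27 with only the libraries of the 2 groups fitted, where all genes called higher went from 433 to 926. With 1 of the libraries after crush left out, 9 to 21 members were called higher, and fewer were called with 1 uninjured library left out. The other alternatives gave 13 to 19, including 17 with DESeq2 and 19 with limma-voom, and no alternative called a member lower. DESeq2 shared 14 of its 17 with edgeR. It did not call Aurkb, Ska1 and Cenpw, and it called Cdc20 (adjusted p = 0.0267), Cenpl (0.00941) and Cenpn (0.0101). The 19 of limma-voom shared 16 with edgeR, without Cenpi and with Ndc80, Cenpl and Cenpn added. At 1 day over uninjured mice, the 0 members called lower became 1 with library size alone, 4 with no filter, 4 with DESeq2 and 0 to 5 with 1 library left out. At 3 days over 1 day, the 23 called higher were 16 to 24 with 1 library left out and 22 to 29 otherwise. In that comparison 2 uncalled members turned negative. Dsn1 had a log2 fold change of −0.083 without day 1 replicate 1 (adjusted p = 0.939), and −0.083 to 0.297 with 1 library left out. Oip5 had −0.023 without day 1 replicate 1 (0.993) and −0.19 without day 1 replicate 2 (0.918), and −0.19 to 2.55 with 1 library left out. The cause was not tested.

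Library size alone moved the median log2 fold change of all genes by −0.15 at 3 days over uninjured mice and by −0.12 at 1 day over uninjured mice, and upper quartile scaling by −0.11 at 3 days over uninjured mice, against member medians of 3.10, −0.36 and 3.16 under those scalings. Same-numbered libraries deviated together with r of −0.06 to 0.091 over 7 pairs, and other pairs with r of −0.091 to 0.049 over 14. The deviations of the 2 uninjured libraries mirror each other, so the pairs are not independent and cannot show whether replicate numbers pair the libraries. With the replicate block, 13 members were called higher at 3 days over uninjured mice, 24 at 3 days over 1 day, and 0 at 1 day over uninjured mice. Leaving out mitochondrially encoded genes, an alternative chosen after seeing the data, gave 17 at 3 days over uninjured mice. Calls at 3 days over uninjured mice were also lost for Nuf2 with no filter (adjusted p = 0.0776), Cenpi with limma-voom (0.0539) and Ska1 with library size alone (0.0541) or upper quartile scaling (0.0505). The replicate block lost Cdca5 (0.0511), Zwilch (0.0613), Cenpw (0.0613) and Ska1 (0.102), and a filter at a mean of 1 CPM lost Ska1.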
